A study of Mus musculus with 10 samples.

Results

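Hepcidin, the transferrin receptors and the genes that control them were described as a group of 10 iron regulation genes in mouse liver: Hamp, Hamp2, Tfrc, Tfr2, Trf, Slc40a1, Hfe, Bmp6, Id1 and Smad7. They were chosen by gene symbol, and all 10 were found, each read by 1 probe set, among 19935 genes that had a probe set with a single symbol. The livers came from 5 mice lacking nucleomethylin (NML-KO) and 5 wild-type mice (WT), all aged 12 weeks, with total RNA from each liver on its own whole-transcript array. Nucleomethylin, encoded by Rrp8, is a protein of the nucleolus with a role in repressing the transcription of ribosomal RNA. The labels name no treatment, and they state neither strain, sex and litter nor which part of the gene was removed and in which cells. The question addressed is whether iron regulation transcripts differ in liver when nucleomethylin is missing.

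Hepatocytes secrete hepcidin, the product of Hamp, which binds the iron exporter ferroportin (Slc40a1) on macrophages and gut cells and has it degraded, so that less iron enters the blood. Hepcidin transcription follows iron: endothelial cells of the liver sinusoids make the ligand BMP6, hepatocyte receptors with the co-receptor hemojuvelin (Hjv) pass the signal to SMAD proteins, and Id1 and Smad7 are targets of the same signal. Transferrin (Trf) carries iron in blood. TFR1 (Tfrc) takes it up, while TFR2 and HFE help hepatocytes to sense how much transferrin is loaded. Inflammation raises hepcidin through interleukin-6 and STAT3.

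Every value is a log2 intensity, and intensities of different probe sets are not set against each other. Array medians ran from 62.5 to 66.7 on the linear scale, and precision rests on having 5 arrays of each genotype. Rrp8 averaged 6.87 ± 0.22 in NML-KO livers and 7.75 ± 0.11 in WT livers (SD, n = 5 each), without overlap (difference -0.88, SE 0.10, adjusted p = 0.109 by limma). The 5 hepatocyte markers measured of 6 (Alb, Ttr, Apoa1, Hnf4a and Cps1) had means between 13.59 and 13.69 in NML-KO livers and between 13.62 and 13.69 in WT livers. Apart from genotype, the livers fell into 2 sets by Dbp, a transcription factor gene under direct control of the circadian clock. Dbp exceeded 8 in 5 livers (NML-KO 1 to 3, WT 1 and WT 2), the lowest being 9.68, and was at most 6.60 in the other 5 (NML-KO 4, NML-KO 5 and WT 3 to 5). These Dbp-high and Dbp-low livers are no groups of the study, the labels state no time of dissection, and differences between them are described without a test.

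Hamp and Hamp2 are neighbouring copies on chromosome 7, with 1 annotated pseudogene, Usf2-ps1, between them. In mice Hamp is the gene that regulates iron, and Hamp2 lacks that activity. Both are near-identical in sequence, so their probe sets may read each other's transcripts. Their promoters are shown because both genes had their lowest value in NML-KO 5 and their highest in NML-KO 4. The 250 bases before the annotated start (RefSeq, GRCm38.p6, minus strand, 5′ to 3′) lie at chr7:30944030-30944279 for Hamp and chr7:30924182-30924431 for Hamp2. Capitals mark GGCGCC, the letters of the BMP-responsive element known from the human hepcidin promoter, and TTCNNNGAA, the form bound by STAT factors.
Hamp: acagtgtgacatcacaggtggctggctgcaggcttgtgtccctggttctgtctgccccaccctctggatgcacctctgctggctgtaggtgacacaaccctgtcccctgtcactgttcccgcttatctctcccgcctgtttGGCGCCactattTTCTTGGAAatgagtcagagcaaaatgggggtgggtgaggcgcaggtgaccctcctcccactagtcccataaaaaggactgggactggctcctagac
Hamp2: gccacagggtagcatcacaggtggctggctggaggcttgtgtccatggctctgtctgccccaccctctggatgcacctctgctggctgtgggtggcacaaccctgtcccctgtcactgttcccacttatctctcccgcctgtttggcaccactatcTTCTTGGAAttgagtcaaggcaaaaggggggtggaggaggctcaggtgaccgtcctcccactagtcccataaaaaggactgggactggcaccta

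Aligned over 247 positions, the promoters were identical at 91.9% and differed by 20 substitutions. GGCGCC began 109 bases before the start of Hamp and was absent from the Hamp2 window, where G145A, counted from 1 at the 5′ end of the Hamp sequence with the Hamp base first, falls within it. TTCNNNGAA was present in both, 97 bases before the start of Hamp and 94 before that of Hamp2. Searched on both strands, GGCGCC occurred in 9.59% and TTCNNNGAA in 7.02% of 32851 promoter windows of the same length. The table held promoters for 6 of the 10 genes. Of the other 4 (Tfrc, Tfr2, Hfe and Bmp6), a window of Tfrc held GGCGCC, and that of Bmp6 held the clock E-box CACGTG, which was in 6.02% of windows. None of the 6 genes' windows held the D-box letters TTATGTAA or TTACGTAA, which are bound by DBP (0.819% and 0.113% of windows). A match is a description of letters and not of binding.

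None of the 10 genes passed an adjusted p of 0.05 between NML-KO and WT livers (limma with Benjamini-Hochberg adjustment over 19935 genes), and 0.0% of all genes did. At an unadjusted p below 0.05 there was 1 member, Id1, which was lower in NML-KO livers, against 2.7% of all genes (1.05% higher and 1.66% lower). The difference was below 0 for 7 of the 10 genes and for 53.4% of all genes, with medians of -0.12 for the 10 genes and -0.0065 for all. No member had genotypes that did not overlap, which 0.406% of all genes did.

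**Figure D1:**
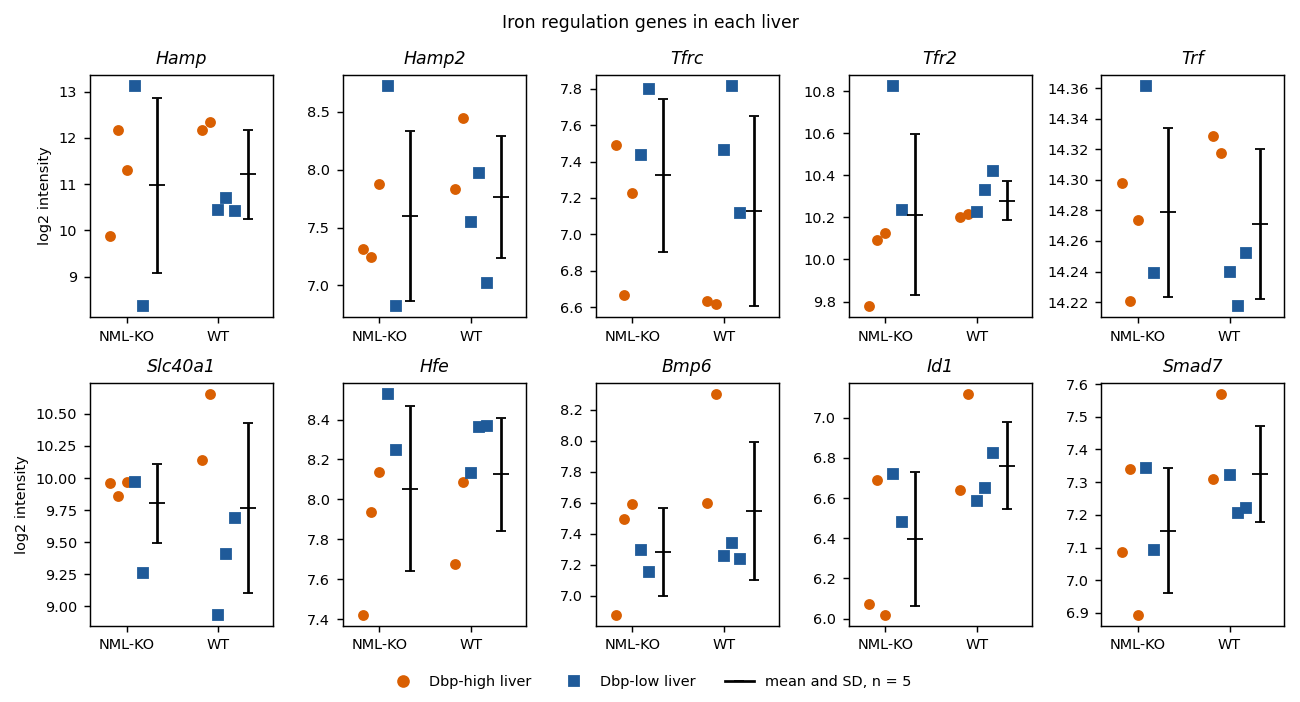
Log2 intensity of each of the 10 genes (vertical axes, a separate scale for each gene) in the 5 NML-KO and 5 WT livers. Circles are Dbp-high and squares Dbp-low livers, and bars show the mean and SD of each genotype. Genotypes overlap for all 10 genes, and Hamp spans 4.77 among NML-KO livers, against 1.93 among WT livers.

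Hamp varied more between livers than nearly any other gene, and the genotypes did not differ beyond that spread. Its log2 intensity was 9.88, 12.18, 11.31, 13.13 and 8.37 in NML-KO 1 to 5, against 12.17, 12.34, 10.44, 10.69 and 10.41 in WT 1 to 5. NML-KO livers held both the highest and the lowest value, a 27.2-fold range, whereas WT livers spanned 3.81-fold and lay within it. The means were 10.97 ± 1.89 in NML-KO and 11.21 ± 0.96 in WT livers (SD, n = 5 each). The difference of -0.24 (SE 0.84) had a limma adjusted p of 0.999, and its 95% confidence interval of 0.234-fold to 3.07-fold is too wide to exclude a change of 2-fold either way. Of 19935 genes, 15 (0.0752%) had a larger SD within genotypes than Hamp. With 1 liver left out, the difference ran from -0.78 without NML-KO 4 to 0.41 without NML-KO 5, and it was above 0 in 4 of the 10 omissions.

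Hamp2 had its extremes in the same livers as Hamp over a smaller range. It was 7.32, 7.25, 7.88, 8.73 and 6.82 in NML-KO 1 to 5, against 7.83, 8.45, 7.55, 7.97 and 7.02 in WT 1 to 5. The genotypes overlapped throughout, with a difference of -0.16 (SE 0.36, adjusted p = 0.999 by limma). The 2 genes did not run together in every liver: NML-KO 2 had the second lowest Hamp2 of its genotype and the second highest Hamp.

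An acute phase list, which marks a state and not a cell type or a single signal, was given beside Hamp, since inflammation raises hepcidin. The mean of its 9 measured genes of 9 (Saa1, Saa2, Saa3, Orm1, Orm2, Hp, Lcn2, Fgb and Itih4) ran from 8.96 to 12.63 in NML-KO livers and from 9.22 to 10.38 in WT livers. NML-KO 4, with the highest Hamp, had the highest mean of all livers, 12.63. NML-KO 5, with the lowest Hamp, had the second highest, 10.81, and NML-KO 2, with 12.18 for Hamp, had the lowest, 8.96. The acute phase list's part in the Hamp values was not tested. Between genotypes all 9 genes of the list were above 0 (median 0.29), whereas 53.4% of all genes were below 0. NML-KO 4 was the highest liver for each of the 9 genes, so their signs are not separate observations. The median of the list mean was 9.46 over NML-KO livers and 9.75 over WT livers. None of the 9 had an unadjusted p below 0.05 by limma.

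Transferrin, made by hepatocytes, was the steadiest of the 10 genes. Trf lay between 14.22 and 14.36 in NML-KO livers and between 14.22 and 14.33 in WT livers, so that all 10 livers were within 1.11-fold. Its difference of 0.0075 (SE 0.047) had a confidence interval of 0.935-fold to 1.08-fold. At so high an intensity an array may compress differences, and this was not tested here.

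The receptors did not differ between genotypes beyond their spread. Tfrc was 7.49, 6.67, 7.23, 7.44 and 7.80 in NML-KO 1 to 5, against 6.63, 6.62, 7.46, 7.82 and 7.12 in WT 1 to 5. It was lowest in WT 1, WT 2 and NML-KO 2 and highest in WT 4 and NML-KO 5, so both genotypes held low and high livers. The difference was 0.19 (SE 0.27, adjusted p = 0.999 by limma), and the interval ran from 0.758-fold to 1.73-fold. With 1 liver left out it ran from 0.066 without WT 2 to 0.37 without WT 4. Tfr2, the hepatocyte receptor, was 9.78, 10.09, 10.13, 10.83 and 10.24 in NML-KO 1 to 5, against 10.20, 10.22, 10.23, 10.33 and 10.42 in WT 1 to 5. WT livers were close together (SD 0.094) and lay inside the range of NML-KO livers (SD 0.38), with a difference of -0.067 (SE 0.16). Hfe, which encodes an MHC class I-like partner of the receptors, ranged from 7.42 to 8.53 in NML-KO livers and from 7.68 to 8.37 in WT livers, a difference of -0.072 (SE 0.20). For Tfr2 and Hfe, as for Hamp, NML-KO 4 was the highest of all livers.

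Slc40a1, the ferroportin gene, is expressed in macrophages as well as hepatocytes. It was 9.96, 9.86, 9.97, 9.97 and 9.26 in NML-KO 1 to 5, against 10.14, 10.65, 8.93, 9.41 and 9.69 in WT 1 to 5. NML-KO 5 lay apart below the other NML-KO livers, which were close together, while WT livers spanned 1.72. The difference was 0.038 (SE 0.29, adjusted p = 0.999 by limma), and its sign changed with the livers included, from -0.17 without WT 3 to 0.26 without WT 2. In whole liver, fewer cells of a type and less RNA per cell cannot be told apart. The mean of 8 Kupffer cell markers of 8 (Clec4f, Vsig4, Cd5l, Adgre1, Marco, Timd4, C1qa and Csf1r) ran from 7.41 to 8.63 in NML-KO and from 7.43 to 8.39 in WT livers. Its extremes, NML-KO 2 and NML-KO 4, were not those of Slc40a1.

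The ligand and the targets of BMP signalling were the members nearest to a genotype difference, and none passed the threshold. Id1, an inhibitor of helix-loop-helix transcription factors, was 6.07, 6.69, 6.02, 6.72 and 6.48 in NML-KO 1 to 5, against 6.64, 7.12, 6.58, 6.65 and 6.82 in WT 1 to 5. All 5 NML-KO livers lay below the WT mean of 6.76, but NML-KO 2 and NML-KO 4 lay above the lowest WT liver. The NML-KO signal was 0.776-fold that of WT (difference -0.37, SE 0.16, unadjusted p = 0.0457 and adjusted p = 0.999 by limma). A two-sided exact permutation test of the means gave p = 0.0952. The unadjusted p was above 0.05 without any one of NML-KO 1, NML-KO 3, NML-KO 5, WT 1, WT 2, WT 4 or WT 5, with differences from -0.45 to -0.27 over the 10 omissions.

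Bmp6 was 6.88, 7.50, 7.59, 7.29 and 7.15 in NML-KO 1 to 5, against 7.60, 8.30, 7.25, 7.34 and 7.24 in WT 1 to 5. WT 2 stood above all others and NML-KO 1 below, and the remaining livers of both genotypes were interleaved. The difference was -0.26 (SE 0.21, unadjusted p = 0.240 by limma), and it was -0.075 without WT 2. Sinusoidal endothelial cells are the main source of BMP6 in liver, and the mean of 8 of their markers of 8 (Stab2, Stab1, Lyve1, Clec4g, Fcgr2b, Kdr, Oit3 and Gpr182) ran from 8.75 to 9.08 in NML-KO and from 8.78 to 9.10 in WT livers. Smad7, an inhibitory SMAD that damps the signal, lay between 6.89 and 7.34 in NML-KO and between 7.21 and 7.57 in WT livers, with a difference of -0.17 (SE 0.10, unadjusted p = 0.118 by limma). WT 2 was the highest liver for Bmp6, Id1, Smad7 and Slc40a1 alike, and the second highest for Hamp and Hamp2.

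Within the Dbp sets, no member passed the adjusted threshold between genotypes. Among Dbp-high livers (3 NML-KO, 2 WT) the difference in Bmp6 was -0.63 (SE 0.24, unadjusted p = 0.0277), Id1 -0.62 (SE 0.21, unadjusted p = 0.0183) and Smad7 -0.33 (SE 0.14, unadjusted p = 0.0430) by limma, which makes 3 of the 10 genes. This compares with 10.2% of all genes at an unadjusted p below 0.05 in that set, and the adjusted p were 0.426, 0.396 and 0.472. Among Dbp-low livers (2 NML-KO, 3 WT) the same genes were at -0.054, -0.084 and -0.031, and 0 of the 10 members had an unadjusted p below 0.05, against 2.24% of all genes. The difference between the sets did not pass for any member in limma's interaction term, with unadjusted p of 0.124 for Bmp6, 0.112 for Id1 and 0.165 for Smad7. At an unadjusted p below 0.05 the interaction held 0 of the 10 members and 6.49% of all genes. NML-KO minus WT was below 0 for 9 of 10 members among Dbp-high livers and 3 of 10 among Dbp-low livers, against 53.8% of all genes in Dbp-high and 53.0% in Dbp-low livers. Among Dbp-high livers Dbp itself was 9.68 to 9.71 in NML-KO and 9.87 and 10.23 in WT livers, so the genotypes were not matched on Dbp. The part of the Dbp level in these differences was not tested. WT 2, the highest liver for Bmp6, Id1 and Smad7, is 1 of only 2 WT livers in the Dbp-high set. The other, WT 1, lay below NML-KO 2 for Id1 (6.64 against 6.69) and Smad7 (7.31 against 7.34). For Bmp6 it lay above NML-KO 2 (7.60 against 7.50).

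**Figure D2:**
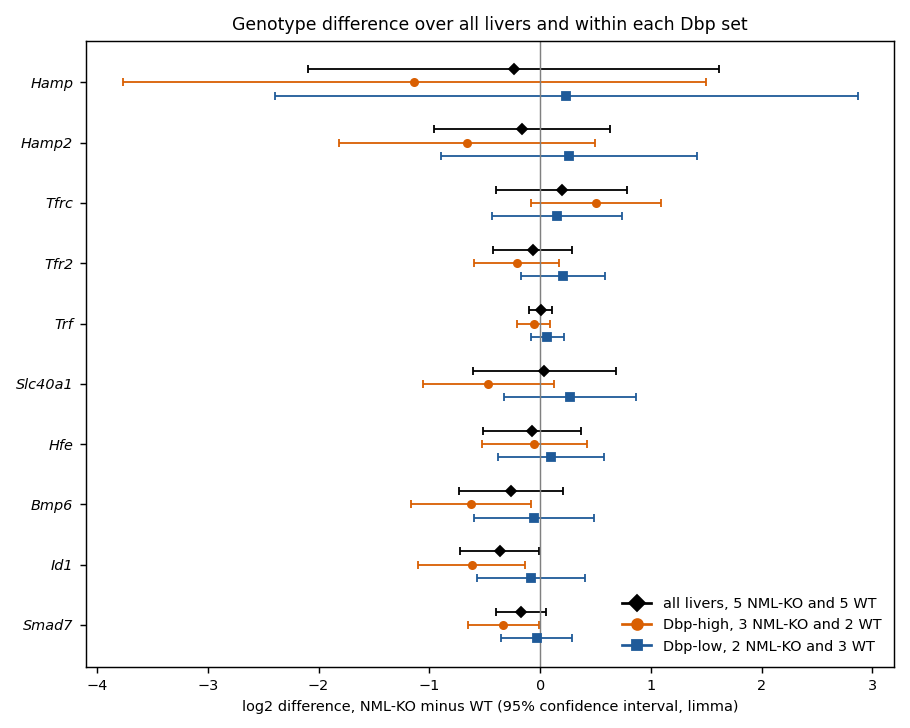
Log2 difference NML-KO minus WT (horizontal axis) for each of the 10 genes, with 95% confidence intervals from limma, over all livers (diamonds), Dbp-high livers (circles) and Dbp-low livers (squares). Over all livers the interval of Id1 alone leaves out 0, and its adjusted p is 0.999; among Dbp-high livers those of Bmp6, Id1 and Smad7 do, with adjusted p from 0.396 to 0.472.

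Between the Dbp sets, the uptake and sensing genes Tfrc, Tfr2 and Hfe had lower means in Dbp-high livers, and Slc40a1 and Hamp had higher ones, although the sets mostly overlapped. The 1 member of 10 without overlap was Tfr2, against 12.2% of all genes. Tfr2 was 9.78 to 10.22 in Dbp-high and 10.23 to 10.83 in Dbp-low livers, a difference of -0.32 (SE 0.13) adjusted for genotype. The gap between the sets was narrow, the sets overlapped with each array centred on its median, and the difference was -0.16 without NML-KO 4. Tfrc averaged 6.93 ± 0.40 in Dbp-high and 7.53 ± 0.29 in Dbp-low livers (SD, n = 5 each), or 1.59-fold lower adjusted for genotype (difference -0.67, SE 0.18). Overlap came from NML-KO 1 and NML-KO 3, which were high for their set, and WT 5, which was low for its own.

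Hfe averaged 7.85 ± 0.30 in Dbp-high and 8.33 ± 0.15 in Dbp-low livers, a difference of -0.48 (SE 0.14). Among Dbp-high livers NML-KO 3 reached 8.14, just above the 8.13 of the Dbp-low liver WT 3, and leaving out either of these livers separated the sets. Slc40a1 averaged 10.12 ± 0.32 in Dbp-high and 9.45 ± 0.40 in Dbp-low livers, 1.61-fold higher adjusted for genotype (difference 0.68, SE 0.21), and NML-KO 4 alone caused the overlap. Kupffer cell markers averaged 7.41 to 8.26 in Dbp-high and 7.96 to 8.63 in Dbp-low livers, with overlap and medians of 7.68 and 8.22. The part of Kupffer cells in the Slc40a1 difference was not tested.

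Hamp averaged 11.58 ± 1.03 in Dbp-high and 10.61 ± 1.69 in Dbp-low livers, and its difference of 1.06 (SE 0.81) was 2.13 without NML-KO 4, against 0.30 when NML-KO 5 was left out. The 3 WT Dbp-low livers, at 10.41 to 10.69, lay below both WT Dbp-high livers, at 12.17 and 12.34, while NML-KO livers showed no such order. Bmp6 differed by 0.38 (SE 0.18), or 0.18 without WT 2, and its sets separated without NML-KO 1. Hamp2, Trf, Id1 and Smad7 had differences from -0.073 to 0.17, and for Hamp2, Id1 and Smad7 the sign turned when 1 liver was left out. The acute phase mean did not overlap between the sets (8.96 to 9.46 in Dbp-high and 9.75 to 12.63 in Dbp-low livers). Taken singly, 4 of its 9 genes did not overlap, against 12.2% of all genes. The part of the acute phase list in these differences was not tested.

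**Figure D3:**
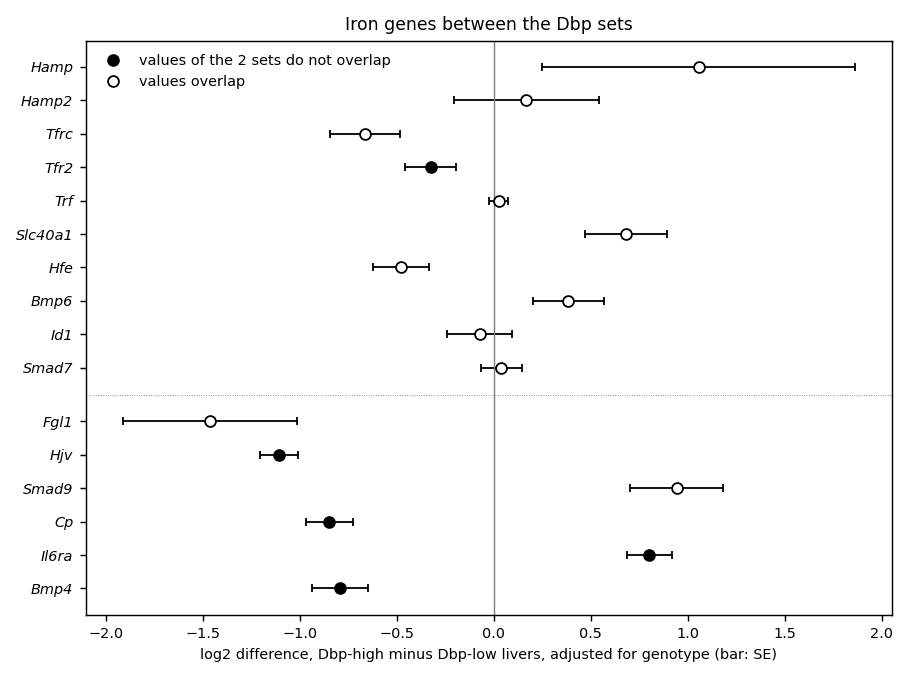
Log2 difference between Dbp-high and Dbp-low livers adjusted for genotype (horizontal axis, bar: SE), for the 10 genes above the dotted line and for the 6 genes of the wider iron list with the widest differences below it. Filled points mark genes whose values do not overlap between the sets; among the 10 genes that is Tfr2, and below the line Hjv, Cp, Il6ra and Bmp4.

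A wider list of 54 genes of iron uptake, storage, haem iron, iron-responsive control and hepcidin signalling was read in the same fits, and 53 of them were measured. Between genotypes 0 passed the adjusted threshold, 24 were above 0 and 29 below, and the median was -0.020. At an unadjusted p below 0.05 there was 1 gene of the 53, against 2.7% of all genes, so the list gave no more than the background. It was Cd163, the macrophage scavenger receptor for haptoglobin-bound haemoglobin. Cd163 was 6.72, 6.42, 6.59, 6.65 and 6.71 in NML-KO 1 to 5, against 6.29, 6.26, 6.44, 6.42 and 6.51 in WT 1 to 5. It was higher in 4 NML-KO livers than in every WT liver, with a difference of 0.23 (SE 0.074, unadjusted p = 0.00960 and adjusted p = 0.999 by limma). The difference was 0.30 among Dbp-high and 0.22 among Dbp-low livers. Of the 8 Kupffer cell markers, 1 was above 0 and 0 had an unadjusted p below 0.05.

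Between the Dbp sets 13 of the 53 genes did not overlap, 4 higher and 9 lower in Dbp-high livers, beside the 12.2% of all genes given above (5.04% higher and 7.12% lower). Hjv, the hemojuvelin gene, was 9.44 to 10.06 in Dbp-high and 10.63 to 11.10 in Dbp-low livers, 2.15-fold lower (difference -1.11, SE 0.096). Between genotypes the Hjv difference was -0.56 (SE 0.35, unadjusted p = 0.138 by limma). With the Dbp set in the model it was -0.34 (SE 0.096, unadjusted p = 0.00541 and adjusted p = 0.992 by limma), at -0.34 among Dbp-high and -0.35 among Dbp-low livers. In that model 2 of the 53 genes and 4.36% of all genes had an unadjusted p below 0.05. Cp, encoding the plasma ferroxidase ceruloplasmin, was 1.80-fold lower in Dbp-high livers, at 11.41 to 11.90 against 12.38 to 12.85 in Dbp-low livers. Bmp4, a further BMP ligand, was 1.73-fold lower.

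Il6ra, the interleukin-6 receptor gene, was 1.74-fold higher, at 9.27 to 9.88 in Dbp-high and 8.65 to 9.02 in Dbp-low livers. Fgl1, a liver-secreted protein that holds BMP signalling back, had the widest difference of the list (-1.46, SE 0.45), with overlap, and its highest value, 12.75, was in NML-KO 4. Smad9, a receptor-activated SMAD of the BMP branch, was 1.92-fold higher with overlap. The remaining genes without overlap were Fth1, Slc11a2, Steap3, Slc39a8, Hmox2, Tmprss6 (lower in Dbp-high livers) and Aco1, Ireb2 and Bmpr1b (higher). Steap3 (ferrireductase), Slc11a2 (iron transporter DMT1) and Ireb2 (iron regulatory protein IRP2), named after their values had been seen, differed by -0.57 (SE 0.068), -0.51 (SE 0.088) and 0.54 (SE 0.12).

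**Figure D4:**
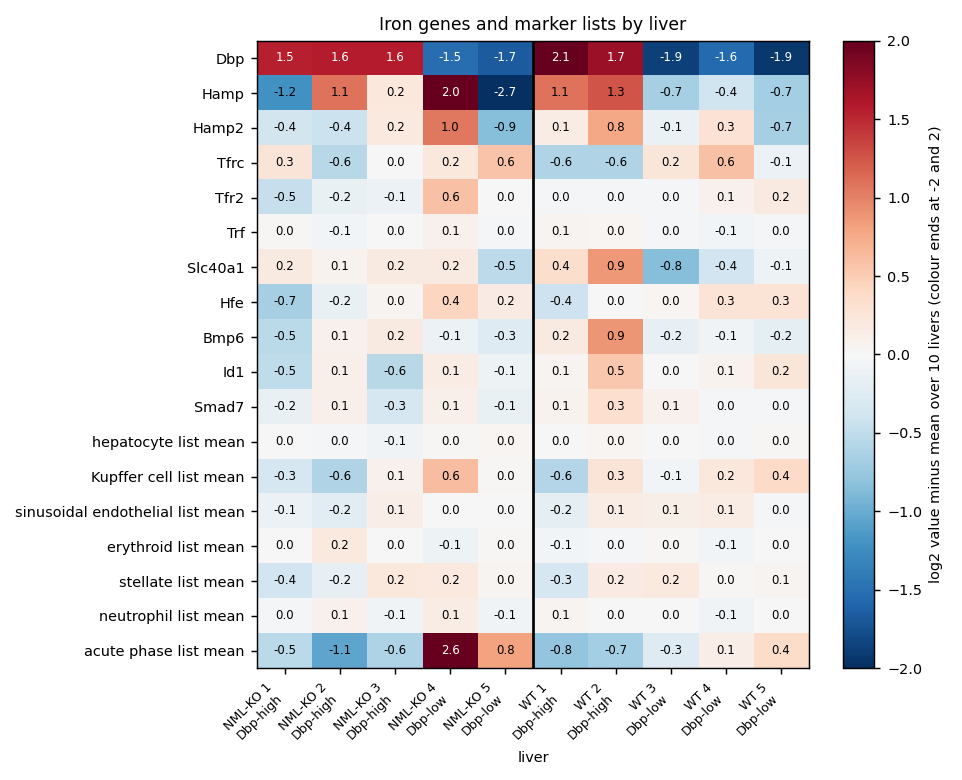
Log2 values centred on each gene's mean over the 10 livers (colour and number in each cell), for Dbp, the 10 genes and the means of 7 marker lists (down the page), in NML-KO livers left and WT livers right of the line. Hamp is highest in NML-KO 4, where the acute phase mean is also highest, and lowest in NML-KO 5. Hepatocyte and erythroid means stay nearly level, and most erythroid markers are dim. Of the 5 hepatocyte markers, 3 do not overlap between the Dbp sets, against 12.2% of all genes: Alb and Cps1 are higher and Ttr is lower in Dbp-high livers.

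Genes with the profile most like that of a member were found by the root mean square distance between centred log2 values over the 10 livers. For Hamp, whose own root mean square was 1.34, the nearest were Abcg5 (0.837) and Abcg8 (0.846), the paired sterol exporter genes, and Asns (0.951), the asparagine synthetase gene. Abcg5 was 11.08, 11.42, 11.51, 11.62 and 9.55 in NML-KO 1 to 5, against 11.39, 12.25, 9.96, 9.80 and 10.06 in WT 1 to 5. It shared with Hamp the low values of NML-KO 5 and WT 3 to 5, and not that of NML-KO 1. The highest Abcg5 was in WT 2, and the highest Hamp in NML-KO 4. For Id1, with 0.311, the nearest were Wrnip1 (0.153), Cd300c (0.167) and Smad7 (0.175), which is itself a member. Tfrc, with 0.435, was nearest to Pnpt1 (0.170), Slc35b4 (0.174) and Casp8 (0.175). The points of each profile share the 10 livers and their division by Dbp, and its part in these distances was not tested.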

How the data were processed

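Livers were profiled on Affymetrix whole-transcript arrays with biotin-labelled RNA, per the labels' protocols. The authors deposited intensity values on a linear scale for 28815 probe sets; per the submitters' processing notes the genome build was mm8, and the labels and file state no background correction or normalization. Probe sets were named through the platform table: 21780 had 1 symbol, 1605 several and 5430 none. Symbols were updated by gene ID from RefSeq (GRCm38.p6), and the brightest probe set per gene was kept, leaving 19935 genes. Intensities were taken to log2 without a filter and fitted with limma 3.58.1 in R 4.3.3, with Benjamini-Hochberg adjustment at 0.05. The fit was also run on simulated data with noise drawn separately for each gene and liver. Those data lack the Dbp division, so the run does not check the fit for it. Genotype and replicate number came from sample titles; each title names a separate liver, and p-values measure the spread between these livers. The smallest root mean square difference between 2 arrays was 0.165 (log2). Deviations of same-numbered livers correlated between -0.42 and 0.54, above 0 in 4 of 5 pairs. The pair below 0 was number 3, the 1 pair split between Dbp-high and Dbp-low livers, so number and Dbp set largely coincide. As not every pair correlated and no label ties the numbers, they were not taken to pair the livers.

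Members, lists and tests were chosen with earlier results of these data known. Named were the 10 genes, Rrp8, Dbp, wider-list genes with an unadjusted p below 0.05 (up to 4), the 6 widest between Dbp sets and the 3 nearest profiles to Hamp, Id1 and Tfrc. Neutrophil, stellate and erythroid markers were also averaged. Alternatives were scaling, an offset of 16, a dim-gene filter at 6, probe set choice, prior, array weights, replicate block, Dbp set and each liver left out.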

Additional observations from a re-analysis of the deposited data

Results flagged for a closer look

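Slc40a1 in NML-KO 5 was 9.26, apart from the other 4 NML-KO livers, which lay between 9.86 and 9.97. The gap took up 0.844 of the range of its genotype, above the critical value of 0.71 for 5 samples. It was the 1 such value among 34 groups of 5 livers examined, where chance gives about 1 in 20. The same liver had the lowest Hamp and Hamp2.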

How the results depend on the processing

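No member passed the adjusted threshold under any of 19 alternatives (smallest adjusted p 0.924); over all genes 0 passed, and 1, Rrp8, without NML-KO 4 (adjusted p 0.0171), a count of 0 to 1 with 1 liver left out. Members at an unadjusted p below 0.05 numbered 1 (Id1), but 0 with the Dbp set in the model, an offset of 16 or quantile normalization, and 0 to 2 with 1 liver left out. Members without overlap between Dbp sets numbered 1, 0 with median centring (Hfe replaced Tfr2 under quantile normalization) and 1 to 2 with 1 liver left out. Of the wider list, 1 gene had an unadjusted p below 0.05, against 2 with the Dbp set in the model, 4 with array weights, 4 with the replicate block and 1 to 5 with 1 liver left out; these wider counts were added after seeing the data. Without overlap were 10 to 13 genes under other scalings and filters, and 13 to 16 with 1 liver left out. Over all genes 539 had an unadjusted p below 0.05, 870 with the Dbp set in the model, 913 with array weights, 834 with the block and 358 to 994 with 1 liver left out.

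With 1 liver left out, 6 small genotype differences turned sign: Hamp (-0.78 to 0.41), Hamp2 (-0.45 to 0.030), Tfr2 (-0.22 to 0.042), Trf (-0.013 to 0.022), Slc40a1 (-0.17 to 0.26) and Hfe (-0.19 to 0.086). Tfrc kept its sign (0.066 to 0.37). With the Dbp set in the model Slc40a1 was -0.099 and Hfe 0.024. The causes were not tested. The replicate block left Id1 at -0.37 (SE 0.10, unadjusted p = 0.0101, adjusted p = 0.999 by limma) and changed no adjusted call among the members; the livers share only a number. Depth is limited by 5 arrays per genotype and by an unknown background in dim probe sets.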

Other observations

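Further targets of BMP signalling were looked at after their values had been seen, so they are given without a test of the group. Id1, Id2, Id3, Smad6, Smad7 and Atoh8 were all below 0 between NML-KO and WT livers, 6 of 6 over all livers, against 53.4% of all genes. Below 0 were 6 of 6 among Dbp-high livers and 3 of 6 among Dbp-low livers, against 53.8% and 53.0% of all genes. Id2 was 10.27, 10.63, 11.15, 12.15 and 11.40 in NML-KO 1 to 5, against 11.11, 11.73, 11.81, 11.63 and 12.24 in WT 1 to 5, a difference of -0.58 (SE 0.33, unadjusted p = 0.105 by limma). The others differed by -0.26 for Id3, -0.16 for Smad6 and -0.18 for Atoh8. Hamp itself did not follow them liver by liver: NML-KO 3, with the lowest Id1 and Smad7, had 11.31.

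Of the 4 interleukin-6 signalling genes in the wider list, Socs3, Stat3 and Il6st were highest in NML-KO 4, the liver with the most Hamp, and Il6ra was not. Socs3, a target of STAT3, was 8.44 in NML-KO 4 and 6.67 to 6.99 in the other NML-KO livers, against 6.49 to 7.66 in WT livers. Stat3 was 10.93 in NML-KO 4 and 9.72 to 9.96 in the other NML-KO livers, against 9.76 to 10.16 in WT livers. Il6st, the signalling subunit of the receptor, was 11.10 in NML-KO 4. Il6ra was 8.90 in NML-KO 4, the second lowest NML-KO liver, and 9.27 to 9.88 in NML-KO 1 to 3, against 8.65 to 9.71 in WT livers. Erythroid markers averaged 5.92 to 6.22 in NML-KO livers and 5.97 to 6.04 in WT livers. Neutrophil markers averaged 5.12 to 5.34 in NML-KO livers and 5.12 to 5.25 in WT livers. The median over the livers was below 6, the level of the dim-gene filter, for every neutrophil marker and most erythroid ones. An unknown background in such probe sets limits what their narrow ranges show. Stellate markers averaged 7.95 to 8.55 in NML-KO livers and 7.99 to 8.53 in WT livers.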
